A study of Rattus norvegicus with 13 samples.

Results

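Default sites and PRDM9 sites were compared by their positions on the rat autosomes. Default sites were the windows with a hotspot strength of 40 or more in SHR-Prdm9 KO/KO testis, and PRDM9 sites were those with a strength of 120 or more in WKY wild-type testis. Of the 91120 autosomal windows, out of 96640 in the whole table, 26446 were default sites and 29483 were PRDM9 sites. A total of 55177 windows were one or the other, and 752 were both. The series holds 13 samples from adult rats, and 5 of them are DMC1 SSDS libraries of testis, with 1 library per strain and genotype: SHR/OlaIpcv wild-type, Prdm9+/- (KO/wt) and Prdm9-/- (KO/KO), WKY wild-type and BN/RIJHsd wild-type. SSDS sequences the single-stranded DNA that an antibody against the recombinase DMC1 brings down. The KO/KO library came from 1 adult SHR male that was homozygous for a truncating Prdm9 deletion, KO39, made in that strain. The Prdm9 allele of WKY is that of SHR, while BN has a different one. Default sites and PRDM9 sites came from animals that differ in strain as well as in Prdm9 genotype, and between these libraries strain and genotype cannot be told apart. Below, SHR alone stands for the wild-type SHR library.

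PRDM9 is a histone methyltransferase of early meiosis whose zinc fingers bind a DNA motif and mark the nearby nucleosomes with H3K4me3, and the meiotic DNA breaks are made by SPO11 next to that mark. When PRDM9 is missing, breaks are placed instead at sites that carry H3K4me3 for other reasons, such as promoters, and these are called default sites. The resected break ends are coated by DMC1, so a pile of DMC1-bound fragments marks a hotspot.

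Windows are 3000 bp long, apart from 1 in the table, and carry, for each library, a strength and a mark for a called hotspot. The strengths are integers, some of them negative, and their formula and scaling are not given in the sources used here, so strengths of different libraries are set side by side and no ratio between libraries is formed. Depth in reads is unknown. No window starts within 400 bp of another, and centres at that distance or less were treated as the same window. Intervals on shares are Wilson 95% intervals over windows, those on ratios are the same bounds divided by the shift mean, and those on medians come from the ranked values. They cover counting error only. With 1 library a side there was no replicate check and no test.

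The other libraries show what kind of sites these were. At default sites the KO/KO strength had a median of 91 and reached 2048. Medians of the same windows were 2 in SHR, 20 in WKY, 8 in BN and 10 in KO/wt. At PRDM9 sites the WKY strength had a median of 260 and reached 26104. There the SHR median was 47, that of KO/wt 40, that of BN 9 and that of KO/KO 3. The PRDM9 sites thus had raised strengths in the libraries that share the WKY allele, and low ones in BN and KO/KO.

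The hotspot calls of the other libraries separated the kinds of site in the same way. In SHR, where 21.8% of all autosomal windows were called, 17595 PRDM9 sites were called, or 59.7% (59.1 to 60.2%), against 425 default sites, or 1.61% (1.46 to 1.77%). In BN, where 20.8% of the windows were called, 989 PRDM9 sites were called, or 3.35%, and 411 default sites, or 1.55%. Both shares in BN were below that background. The windows are merged hotspots of the libraries, so each background includes windows listed through that library's own calls. Sites chosen by strength in KO/KO or WKY would tend to lie below it, and no result is read from that. Of all autosomal windows 38.8% were called in KO/KO and 38.3% in WKY, the libraries whose strengths, and not calls, chose the sites. Of the default sites, 25233 (95.4%) were called in KO/KO and 566 (2.14%) in WKY. Of the PRDM9 sites, 27901 (94.6%) were called in WKY and 519 (1.76%) in KO/KO.

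In KO/wt, default sites were called more often than in the wild-type libraries. Only their strongest class by KO/KO strength passed the share of all windows called in KO/wt. With 21.6% of all windows called there, 15563 PRDM9 sites were called in KO/wt, or 52.8% (52.2 to 53.4%), and 2613 default sites, or 9.88% (9.53 to 10.2%). The share of default sites called in KO/wt was higher in stronger classes of KO/KO strength. It was 2.58% (2.30 to 2.89%) at KO/KO strengths of 40 to under 80, 5.84% (5.37 to 6.35%) at 80 to under 160, 18.9% (17.8 to 20.1%) at 160 to under 320 and 50.5% (48.2 to 52.8%) at 320 or more. In SHR the same classes were called in 1.67%, 1.32%, 1.09% and 3.92%, with the last interval at 3.13 to 4.91%. The intervals of neighbouring classes in KO/wt did not overlap. In WKY the shares were 2.65%, 2.04%, 1.41% and 1.36%, in the opposite order. A call placed in an overlapping window was not counted in any of these shares. From the weakest to the strongest class, 16.2%, 16.1%, 19.9% and 28.4% of the default sites overlapped another window.

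The thresholds fell on a smooth slope of values. There were 427 windows at a KO/KO strength of 40 and 419 at 39, and 212 windows at a WKY strength of 120 and 178 at 119. Called hotspots below the thresholds numbered 10142 in KO/KO, or 28.7% of its autosomal calls, and 6971 in WKY, or 20.0%.

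The distance from each default site to the nearest PRDM9 site was measured between window centres, and each distance bin below leaves out its lower edge. Its median was 26.6 kb, with a 95% interval of 26.1 to 27.0 kb, and 91.7% of the default sites had a PRDM9 site within 100 kb. As the reference, all default sites were moved together by fixed distances of 20 to 100 kb in both directions, in 34 shifts, which leaves the regional density of sites nearly as it was. The median after the shifts was 26.7 kb on average and ranged from 26.4 to 27.1 kb. The observed median lay inside that range. Against farther shifts of 200 to 1000 kb, whose medians ran from 27.4 to 29.9 kb, it lay below the range.

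From 3 kb outward the shares of default sites with a PRDM9 site nearby lay inside the range of the shifts of 20 to 100 kb. A nearest PRDM9 site at 3 to 10 kb, a distance at which the windows no longer overlap, was found for 4134 default sites, or 15.6% (15.2 to 16.1%). The shifts gave 15.4% on average (15.0 to 16.0%), so that the observed share divided by the shift mean was 1.01 (0.984 to 1.04). The ratio was 0.990 at 3 to 5 kb, 1.02 at 5 to 10 kb, 1.02 at 10 to 20 kb, 1.00 at 20 to 50 kb, 0.999 at 50 to 100 kb and 0.968 beyond 100 kb. Each of these shares was inside the range of the shifts. With intervals that ran from 0.937 to 1.06 over the bins from 3 to 20 kb, neither attraction nor avoidance was detectable there against these shifts. The shifts span 20 to 100 kb and keep the density of sites at that scale, so the bins beyond 20 kb could not show either. At 3 to 10 kb the share was above the range with shifts of 200 to 1000 kb, at 1.06 (1.03 to 1.09), and among windows that overlap no other, at 1.09 (1.05 to 1.13).

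Closer than 3 kb, where windows overlap, the shares left the range of the shifts. By strength alone, 752 default sites, or 2.84% (2.65 to 3.05%), were in the same window as a PRDM9 site, against 1.08% after the shifts (0.936 to 1.22%), a ratio of 2.62 (2.44 to 2.81). Next to this excess came a gap. PRDM9 sites at 0.4 to 1 kb were the nearest for 76 default sites, against 409.5 after the shifts, a ratio of 0.186 (0.148 to 0.232). At 1 to 1.5 kb the count was 161, with a ratio of 0.476 (0.408 to 0.555), and at 1.5 to 2 kb it was 287, with a ratio of 0.854 (0.761 to 0.958). At 2 to 3 kb the ratio was back inside the range of the shifts, at 0.984. The excess and the gap nearly cancelled: within 3 kb there were 1914 default sites, or 7.24%, against 7.63%, a ratio of 0.948 (0.908 to 0.990).

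Requiring each site to carry the hotspot call of its own library removed the excess and kept a gap. This left 25233 default sites and 27901 PRDM9 sites. Windows that were both then numbered 147, or 0.583% (0.496 to 0.684%), where the shifts gave 1.01% (0.858 to 1.17%). The ratio was 0.575 (0.489 to 0.675) in the same window, 0.476 (0.412 to 0.550) at 0.4 to 1 kb, 0.646 (0.563 to 0.740) at 1 to 1.5 kb and 0.893 at 1.5 to 2 kb. Only the last of these lay inside the range of the shifts. Within 3 kb, 1445 called default sites had a called PRDM9 site, a ratio of 0.766 (0.729 to 0.806). At 5 to 50 kb the shares were slightly above the range of the shifts, with ratios of 1.04, 1.03 and 1.03 in the 3 bins, and at 3 to 10 kb together the ratio was 1.03, inside their range. Every site falls in some bin, so a lower share in the nearest bins has to raise the shares of farther ones. These higher ratios are therefore not separate from the gap. Called default sites were thus found less often than shifted ones within 1.5 kb of a called PRDM9 site. The direction in the same window depended on the call.

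**Figure D1:**
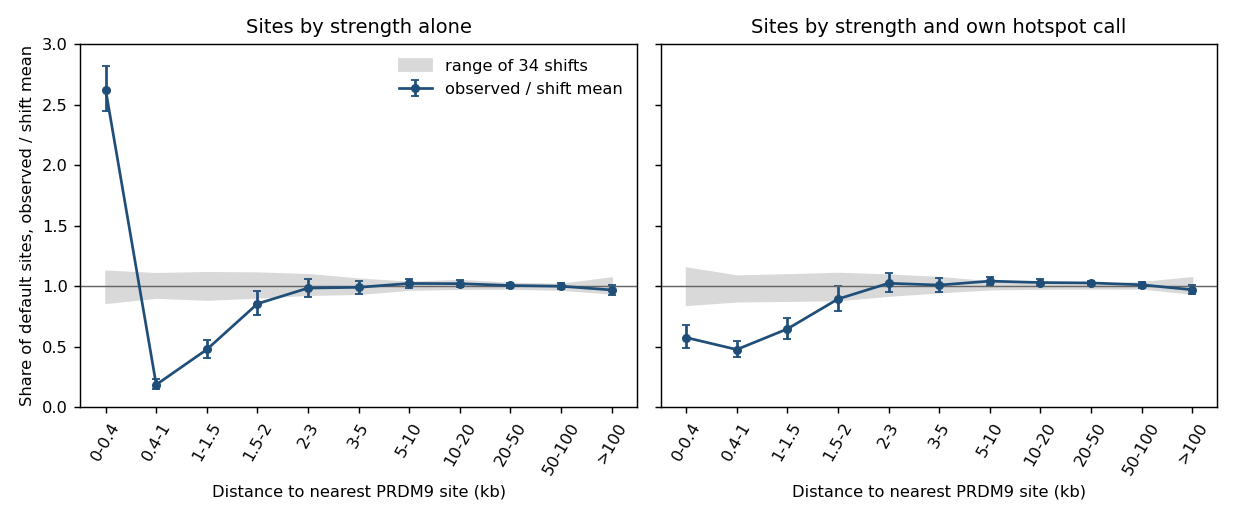
Share of default sites with their nearest PRDM9 site in each distance bin (x axis, kb between window centres), divided by the mean share over 34 shifts (y axis). Points carry Wilson 95% intervals and the grey band is the range of the shifts. By strength alone (left) the first bin is at 2.62 and the second at 0.186, while with calls (right) the first 3 bins are at 0.575, 0.476 and 0.646. From 2 kb on both curves lie near 1.

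The windows that were both by strength were mostly windows that overlap another one. Of the 752, 516 overlapped another window, or 68.6% (65.2 to 71.8%), compared with 17.4% of all autosomal windows, 17.7% of default sites and 19.9% of PRDM9 sites. Hotspots had been called in both libraries in 147 of them, in WKY only in 304, in KO/KO only in 210 and in neither in 91. Among the 147 called in both, 20 overlapped another window, or 13.6%, near the level of all windows. In the 210 called in KO/KO only, 192 overlapped another, and 188 had a WKY call within 1.5 kb. In the 304 called in WKY only, 229 overlapped another, and 183 had a KO/KO call within 1.5 kb. Most windows of either group thus had a call of the other library within 1.5 kb, with shares of 89.5% for KO/KO only and 60.2% for WKY only. Of all 35375 hotspots called in KO/KO, 2.09% had their nearest WKY call 400 to 1500 bp away. No such reference was worked out for the windows called in WKY only, so whether their share was raised was not tested.

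The 147 windows called in both libraries differed from the rest in the other genotypes of SHR. Their median strengths were 89 in KO/KO and 187 in WKY, and 46 in SHR, 87 in KO/wt and 10 in BN. They were called in SHR in 105 cases (71.4%) and in KO/wt in 133 cases (90.5%), but in BN in only 1. The 210 windows called in KO/KO only were called in SHR in 7 cases (3.33%) and in KO/wt in 20 (9.52%), and the 304 called in WKY only in 142 (46.7%) and 136 (44.7%). All default sites had 1.61% and 9.88% called in SHR and KO/wt, and all PRDM9 sites 59.7% and 52.8%. The 91 windows called in neither were called in BN in 33 cases, or 36.3%, against 20.8% of all autosomal windows, 1.55% of default sites and 3.35% of PRDM9 sites. The table merges the hotspots of the libraries. A window with neither call would be listed through another library, which by itself raises this share.

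The strength of a site in the library of the other kind changed with distance only inside 3 kb. At default sites the median WKY strength was 88.5 when the nearest PRDM9 site was 0.4 to 1 kb away, 15 at 1 to 1.5 kb, -44 at 1.5 to 2 kb and -0.5 at 2 to 3 kb. From 3 kb outward it was 19 or 20 in every bin. A default site whose WKY strength reaches the PRDM9 threshold is itself a PRDM9 site and falls in the same-window bin. All other default sites had a WKY strength of at most 119, so the medians beyond 0.4 kb were capped by the definition of the sites. The share of default sites with a WKY strength below 0 was 81.2% at 1.5 to 2 kb and between 10.1% and 12.2% from 3 kb outward. SHR and KO/wt, which use the same PRDM9 sites, followed with medians of -8 and 0 at 1.5 to 2 kb, against 2 to 3 and 9 to 10 from 3 kb outward. BN stayed at 8 in that bin, as farther away.

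The mirror image appeared at PRDM9 sites in the KO/KO library. Their median KO/KO strength was 26 with a default site 0.4 to 1 kb away, 11.5 at 1 to 1.5 kb, -16 at 1.5 to 2 kb and -5 at 2 to 3 kb. It was 3 or 4 in all bins from 3 kb outward. PRDM9 sites that were not default sites had a KO/KO strength of at most 39, so these medians were capped too. The size of a rise close to the neighbour therefore cannot be read from the medians of either library. BN again hardly moved, with medians between 8 and 10 beyond 0.4 kb. A strength inside 3 kb of a neighbouring hotspot thus carried a part that went with the neighbour, upward when close and downward near the window's edge. How far this set the counts by strength inside 3 kb was not tested. The counts with calls are given beside them for that reason.

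**Figure D2:**
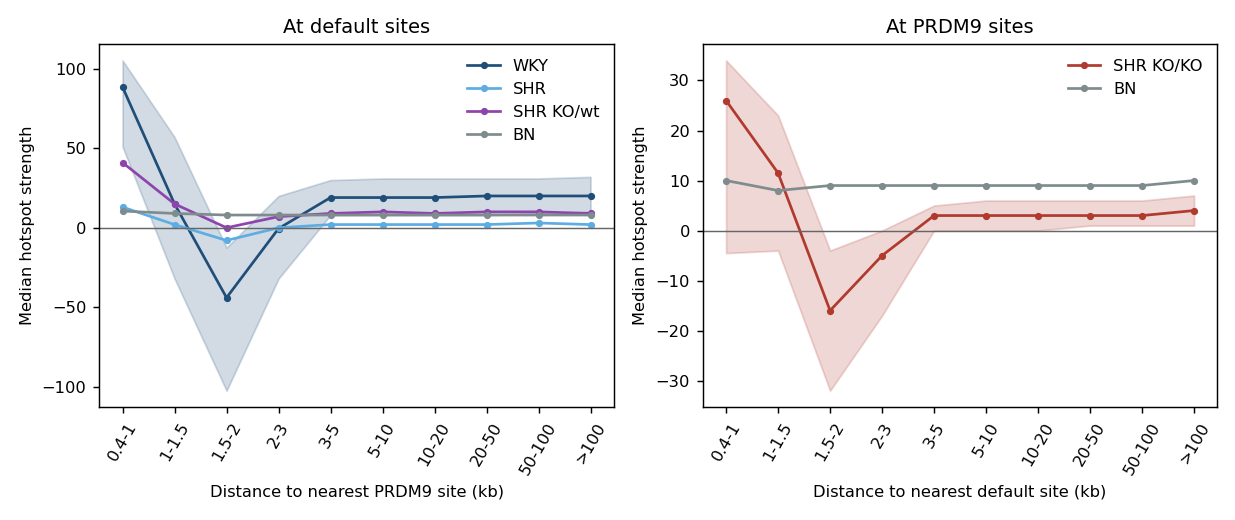
Median hotspot strength (y axis) of libraries other than the one that chose the sites, by distance to the nearest site of the other kind (x axis, kb). Left, default sites in WKY, SHR, KO/wt and BN, and right, PRDM9 sites in KO/KO and BN, with the quartiles of WKY and KO/KO shaded. WKY falls to -44 and KO/KO to -16 at 1.5 to 2 kb, and both are flat from 3 kb on. Outside the same-window bin, the definition of the sites caps WKY at 119 on the left and KO/KO at 39 on the right.

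What default sites showed in KO/wt differed little with distance between 3 and 100 kb, and was lower beyond. Default sites with a PRDM9 site at 3 to 20 kb were called in KO/wt in 815 of 8880 cases, or 9.18%, and those farther than 20 kb in 1353 of 15652, or 8.64%. Their median KO/wt strength was 10 in both groups. Of the 2193 default sites more than 100 kb from a PRDM9 site 6.79% (5.81 to 7.92%) were called, below the interval at 50 to 100 kb (8.72 to 10.3%). The KO/KO strength of default sites had medians of 91 to 94 in the bins from 3 to 100 kb and of 84 beyond 100 kb. At PRDM9 sites the WKY strength had a median of 276 with a default site at 3 to 20 kb and 253 beyond 20 kb, and 230 when the nearest was over 100 kb away. The quartiles of these last groups, from 161 to 474 in all, overlapped widely.

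Strength classes were then compared, with sites doubling in strength from class to class. Default sites were divided at KO/KO strengths of 80, 160 and 320 into 11165, 8761, 4684 and 1836 sites, and PRDM9 sites at WKY strengths of 240, 480 and 960 into 13372, 9583, 5066 and 1462 sites. Each of the 16 pairs of classes was compared with its own shifts.

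At 3 to 10 kb no pair of classes stood apart among called sites. The 16 ratios ran from 0.858, for the weakest default sites and the strongest PRDM9 sites (85 default sites), to 1.11, for default sites of 80 to under 160 and the strongest PRDM9 sites (91 default sites). All 16 were inside the range of the shifts. By strength alone 15 of 16 were inside, and the weakest default sites with the strongest PRDM9 sites were below it, at 0.835 (87 default sites). Default sites of 320 or more had a ratio of 1.04 to all PRDM9 sites and those of 40 to under 80 a ratio of 1.02. The first divided by the second was 1.02, so that strong and weak default sites could not be told apart by their neighbours at this distance.

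Within 1.5 kb all 16 ratios among called sites were below 1, and 14 were below the range of the shifts. They ran from 0.183, resting on 2 default sites, to 0.768, resting on 21. By strength alone 10 of the 16 were below 1, with 1 below the range of the shifts, 2 above it and 13 inside. The ratio was lower beside stronger PRDM9 sites. For all called default sites it was 0.675 (0.600 to 0.760) with PRDM9 sites of 120 to under 240, 0.543 (0.468 to 0.631) at 240 to under 480, 0.404 (0.322 to 0.508) at 480 to under 960 and 0.312 (0.195 to 0.500) at 960 or more, on 273, 170, 74 and 17 default sites. The interval of the weakest class did not overlap those of the strongest 2. Along the strength of the default site the order was less clear, with ratios of 0.637 (0.564 to 0.719), 0.497 (0.426 to 0.579), 0.478 (0.386 to 0.593) and 0.594 (0.436 to 0.808) from the weakest to the strongest class. The strongest default class overlapped the intervals of all the others.

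By strength alone the same-window excess also differed between classes. Default sites of 40 to under 80 had the highest ratio, 3.17, with 380 windows that were also PRDM9 sites, and the ratio was 2.49 at 80 to under 160, 1.91 at 160 to under 320 and 1.80 at 320 or more. As shares of each class, 3.40%, 2.72%, 2.05% and 2.07% of the default sites were also PRDM9 sites. Among called sites the excess was absent. The same-window ratio was then 0.637 at 40 to under 80, 0.546 at 80 to under 160 and 0.352 at 160 to under 320. These values were below the range of the shifts.

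**Figure D3:**
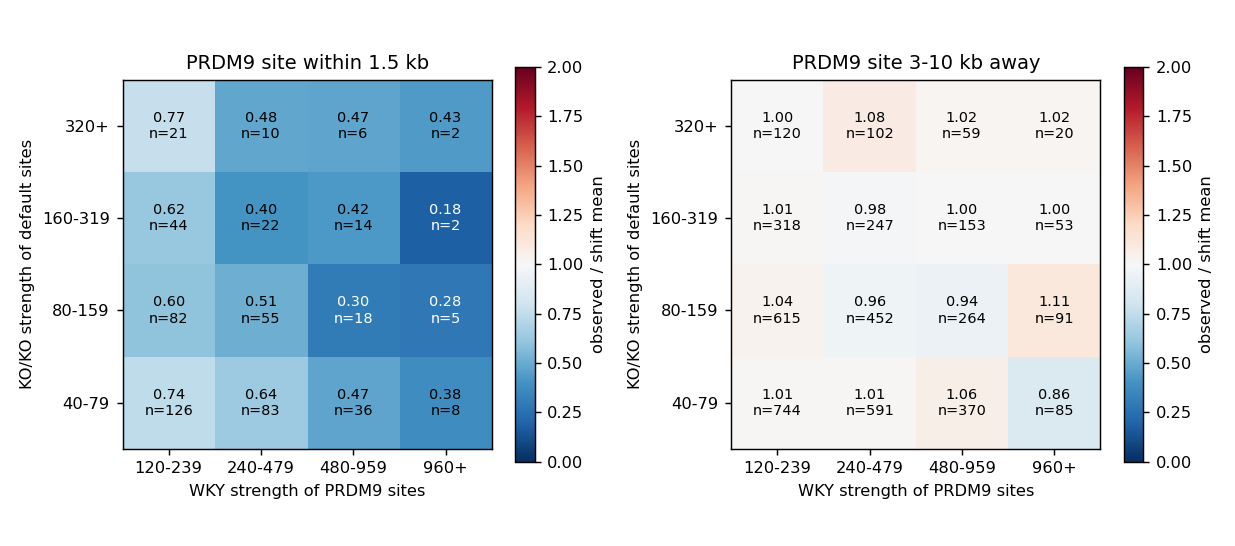
Ratio of the observed share of default sites to the shift mean for each pair of strength classes, for called sites within 1.5 kb (left) and at 3 to 10 kb (right). The x axis is the WKY strength of the PRDM9 sites, the y axis the KO/KO strength of the default sites, and n is the number of default sites. All 16 cells on the left are below 1, while those on the right run from 0.858 to 1.11.

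The result was looked up on each autosome. For called sites the ratio within 1.5 kb was below 1 on 20 of 20 autosomes, from 0.251 on chromosome 19 (7 default sites) to 0.771 on chromosome 14, and it was below the range of the autosome's own shifts on 17. Within 3 kb it was also below 1 on 20 of 20, from 0.573 on chromosome 8 to 0.939 on chromosome 3. By strength alone 13 autosomes were below 1 and 7 above at either distance, with 16 inside the range of their shifts within 1.5 kb and 18 within 3 kb. In the same window, by strength alone, it was above 1 on 20 of 20, from 1.21 to 3.90. With calls the same-window ratio was below 1 on 19 of 20, with chromosome 12 at 1.03 on 7 windows.

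At 3 to 10 kb the autosomes spread around 1, with 12 above and 8 below and 16 inside the range of their shifts. Chromosome 12 was lowest at 0.779 (0.632 to 0.954; 80 of 729 default sites), and chromosome 4 was highest at 1.12 (1.01 to 1.24; 299 of 1744). Their median distances were 31.6 and 24.6 kb. Chromosomes 12 and 20, the latter at 0.832, were also the ones richest in default sites, with 1.23 and 1.57 default sites per PRDM9 site against 0.717 to 1.11 on the others.

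**Figure D4:**
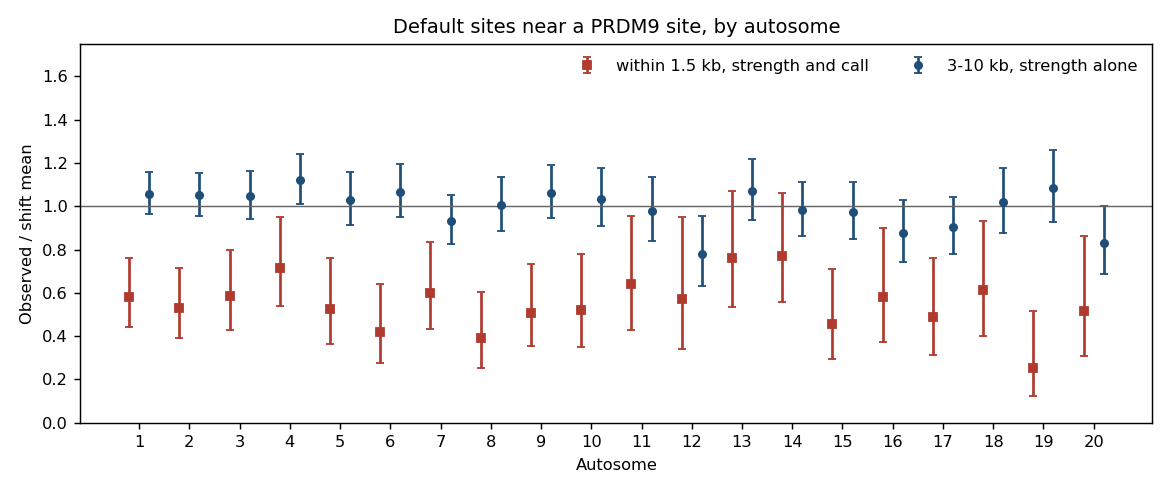
Observed share of default sites divided by the mean of the autosome's shifts (y axis) on the 20 autosomes (x axis), with Wilson 95% intervals. Squares are called sites within 1.5 kb, all below 1, and circles are sites by strength at 3 to 10 kb, from 0.779 on chromosome 12 to 1.12 on chromosome 4.

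Whether the gap within 1.5 kb belonged to the comparison of KO/KO with WKY was looked at with called hotspots of other pairs of libraries, with no strength threshold. In the same window the ratio was 0.659 (0.587 to 0.740) for 283 KO/KO hotspots and WKY, 0.766 (0.666 to 0.881) for KO/KO and BN and 1.06 (0.937 to 1.19) for KO/KO and SHR. It was 2.29 (2.11 to 2.48) for 558 BN hotspots and WKY and 2.30 (2.06 to 2.56) for BN and SHR. The pairs of wild-type strains with different Prdm9 alleles therefore shared windows more often than shifted sites did, while the shares of KO/KO with WKY and BN were below the range of the shifts and that with SHR was inside it.

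At 0.4 to 1 kb the ratio was 0.547 (0.493 to 0.606) for KO/KO and WKY, 0.648 (0.572 to 0.734) for KO/KO and SHR and 0.691 (0.613 to 0.780) for KO/KO and BN. It was 1.15 (1.05 to 1.27) for BN and WKY and 1.06 (0.927 to 1.21) for BN and SHR. The 3 pairs with KO/KO thus had a gap next to the hotspot, and their intervals did not overlap those of the 2 pairs of wild-type strains. With 1 library each, this difference has no test. At 3 to 10 kb all 5 pairs lay between 1.01 and 1.03. These comparisons share libraries and are not independent of each other.

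**Figure D5:**
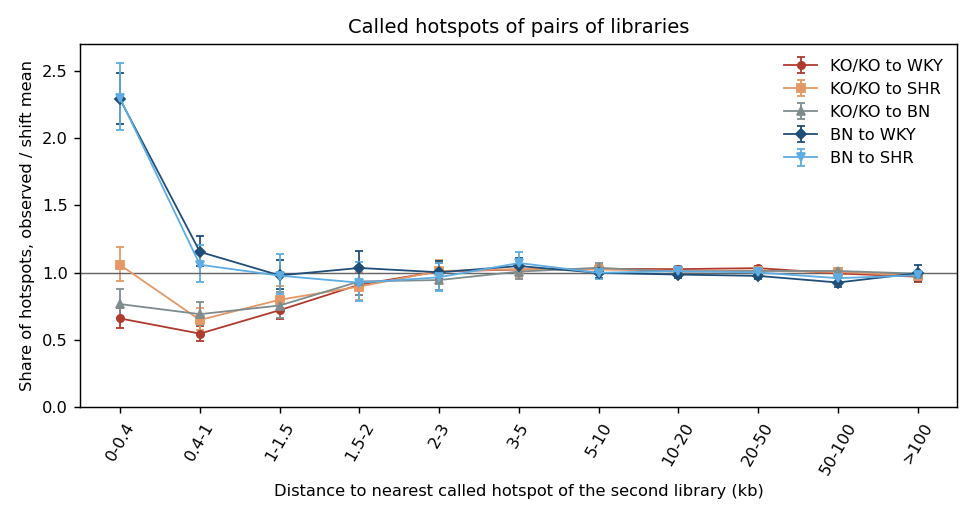
Share of called hotspots of the first library whose nearest called hotspot of the second lies in each distance bin (x axis, kb), divided by the mean over 34 shifts (y axis), with Wilson 95% intervals. The 3 pairs with KO/KO fall to between 0.547 and 0.691 at 0.4 to 1 kb, while BN with WKY and BN with SHR start at 2.29 and 2.30 and show no gap.

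Seen from the PRDM9 sites, the distances were longer. The median from a PRDM9 site to the nearest default site was 35.9 kb, against 36.4 kb after the shifts (35.5 to 37.0 kb), and 77.3% had one within 100 kb. The ratio at 3 to 10 kb was 1.03 (0.998 to 1.06), just above the range of the shifts. It was 0.241 at 0.4 to 1 kb and 0.442 at 1 to 1.5 kb. For called sites these 2 ratios were 0.479 and 0.645, close to those from the default sites. Default sites had their nearest default site at a median of 20.1 kb, and PRDM9 sites their nearest PRDM9 site at 26.0 kb. Among called sites these medians were 22.5 and 30.1 kb.

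On a larger scale the kinds of site went together. In 2610 bins of 1 Mb the numbers of default and PRDM9 sites had a Spearman correlation of 0.507 (Pearson 0.429), and 92.9% of the bins held both. In 541 bins of 5 Mb the Spearman correlation was 0.680, in 10012 bins of 250 kb 0.269 and in 22864 bins of 100 kb 0.0496. Both counts of a bin come from the same merged windows, and bins differ in how many windows they hold. Along the chromosomes, 42.7% of 54405 neighbouring pairs of sites joined a default site with a PRDM9 site, where 49.8% would if the order carried no information. Pairs of default sites made up 25.8% and pairs of PRDM9 sites 31.4%, so that by strength alone sites of a kind tended to follow each other. Windows that were both kinds are left out of these pairs. Overlapping windows can count as such pairs, and 17.7% of default sites and 19.9% of PRDM9 sites overlapped another window. The order of called sites was not examined.

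The strongest sites give examples, with positions in rn5 as deposited. The strongest default sites were overlapping windows on chromosome 13, from 49430953 to 49433953 and from 49431503 to 49434503. The KO/KO strength of the first was 2048, while KO/wt had 183, SHR 20, WKY 14 and BN 0. The second had 1742, 164, 27, 25 and 5 in the same order. Only the second was called in KO/KO, and only the first in SHR and KO/wt, so their calls were split over overlapping windows. The nearest PRDM9 site lay 16.1 kb from the second, with a WKY strength of 252.

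The next were on chromosome 3. The window from 52440317 to 52443317 had a KO/KO strength of 1685, with 49 for KO/wt, 12 for SHR, 15 for WKY and 10 for BN, with a PRDM9 site of 183 in WKY at 19.1 kb. The window from 13978598 to 13981598 had 1571, 100, 30, 27 and 17, with a PRDM9 site of 618 at 50.1 kb. Both were strong in KO/KO and much lower in all 3 wild-type strains, although the second was called in SHR.

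The fifth default site, on chromosome 14 from 107870145 to 107873145, was itself a PRDM9 site. It reached 1561 in KO/KO, 525 in KO/wt and 109 in SHR, as well as 180 in WKY and 63 in BN, and it was called in all 5 libraries. It was the only PRDM9 site among the 5 strongest default sites. The first and the fourth of these were also called in SHR.

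The strongest PRDM9 site, on chromosome 3 from 53458839 to 53461839, had a KO/KO strength of 44 against 26104 in WKY, 10158 in KO/wt and 6649 in SHR. The second, on chromosome 1 from 153211965 to 153214965, had 46 in KO/KO, 13250 in WKY, 9559 in KO/wt and 7282 in SHR. Both passed the KO/KO threshold narrowly and were not called in KO/KO, so that they counted as windows of both kinds by strength and of 1 kind by call. The nearest other window was 11907 bp from the first and 4745 bp from the second.

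The third PRDM9 site was low in the 3 SHR libraries. On chromosome 1 from 58462998 to 58465998 it had 9447 in WKY and 1519 in BN, but 5 in SHR, 9 in KO/wt and -3 in KO/KO, and a default site of 198 lay 16.0 kb away. The fourth, on chromosome 1 from 153000819 to 153003819, had 8268 in WKY, 6469 in KO/wt, 3709 in SHR and 27 in KO/KO, with a default site of 154 at 52.0 kb. The fifth, on chromosome 3 from 52344233 to 52347233, had 8057 in WKY, 1977 in KO/wt, 1705 in SHR and 5 in KO/KO, with a default site of 72 at 14.7 kb.

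Of the windows that were both, 5 had the highest smaller strength relative to its threshold. The window on chromosome 12 from 5494137 to 5497137 reached 465 in KO/KO, 3813 in WKY, 265 in SHR, 507 in KO/wt and 964 in BN, and was called in WKY only. On chromosome 1 from 58043592 to 58046592 the strengths were 462, 4284, 342, 686 and 1529, again with a call in WKY only. Both were high in all 5 libraries.

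On chromosome 1 from 186986485 to 186989485 the strengths were 753 in KO/KO, 973 in WKY, 1307 in SHR, 1800 in KO/wt and 193 in BN, and this window was called in all but BN. On chromosome 18 from 26496222 to 26499222 they were 394, 916, 226, 250 and 11, with a call in KO/wt only. On chromosome 4 from 209837648 to 209840648 they were 290, 2533, 225, 433 and 1281, with a call in BN only. The last 2 overlapped other windows, and only 1 of the 5 was called in both KO/KO and WKY.

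Strong sites of different kinds also stood close together without sharing a window. On chromosome 3 a default site from 52579167 to 52582167, with strengths of 1489 in KO/KO and 1 in WKY, lay 4.26 kb from a PRDM9 site from 52574908 to 52577908 with 3141 in WKY and 2 in KO/KO. On chromosome 1 a default site from 149775842 to 149778842, of 815 in KO/KO and 25 in WKY, lay 7.57 kb from a PRDM9 site of 4070 in WKY and 21 in KO/KO. In both pairs each site was low in the library of the other.

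On chromosome 17 a default site from 36606951 to 36609951, of 816 in KO/KO and 45 in WKY, lay 3.54 kb from a PRDM9 site of 2072 in WKY and 9 in KO/KO. The remaining pairs shared 1 PRDM9 site on chromosome 1, from 153164546 to 153167546, with 1546 in WKY and 6 in KO/KO. The default sites beside it were overlapping windows of 484 and 450 in KO/KO, at 3.68 and 4.10 kb. In KO/wt the PRDM9 sites of these pairs kept strengths of 225 to 1872, and the default sites 21 to 72.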

How the data were processed

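Adult rat testes were assayed by DMC1 SSDS, with 1 library per strain and genotype. The authors aligned reads to rn5 with a modified BWA 0.7.12 and called hotspots from uniquely mapping type 1 single-stranded fragments (per the labels, bedtools 2.23.0 and MACS2 2.1.0.20150420 were also used). The deposited strength is a score of unknown scaling, and the hotspot mark (unit: other) is 0 or 1. Of the 96640 windows, 96639 are 3000 bp long. Reads per library, H3K4me3 and sequences of rn5 were not analysed here.

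Distances were measured between centres, and centres up to 400 bp apart counted as the same window. Default sites were moved by 20 to 100 kb in steps of 5 kb in both directions, and those moved past the end windows of a chromosome were left out. Sites named were the 5 strongest of each kind, the 5 highest windows that are both, the 5 highest pairs at 3 to 10 kb and the extreme autosomes. The members, thresholds and lists were chosen with earlier results of these data known. The distance functions passed all 7 checks, which were simulated cases and a calculation by hand. None of them held overlapping windows with shared signal. Software was matplotlib 3.10.9, numpy 2.4.6, scipy 1.17.1 and pandas 2.3.3 under Python 3.11.15.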

Additional observations from a re-analysis of the deposited data

Results flagged for a closer look

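Hotspot calls at default sites in KO/wt are a signal in a library that the comparison of KO/KO with WKY does not use. Of the default sites 9.88% (9.53 to 10.2%) were called there, against 2.14% in WKY, 1.55% in BN and 1.61% in SHR. The share was below the 21.6% of all autosomal windows called in KO/wt, a background that includes windows listed through the calls of KO/wt itself. The cause was not tested.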

How the results depend on the processing

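With 1 library per condition, depth unknown and strengths of unknown scaling, intervals cover the counting of windows only. No paired analysis was possible because each condition has 1 library. Of 58 alternative values, 33 lay inside the interval of the reported value, 22 moved outside it and 3 turned from above the shifts to below or the reverse. The same-window ratio of 2.62 turned to 0.575 when sites needed their own call and to 0.659 for calls with no threshold. It moved to 1.92 with thresholds multiplied by 2, 1.22 for the highest window within 3 kb, 3.20 with SHR and 3.63 with BN sites of 40 or more in place of WKY, and 1.31 for windows that overlap no other. The ratio at 0.4 to 3 kb of 0.671 moved to 0.796 with own calls, 0.782 for the highest window and 0.824 for calls with no threshold. The ratio within 3000 bp of 0.948 moved to 0.766 with own calls, 0.824 with thresholds multiplied by 2, 0.842 for the highest window, 0.998 with shifts of 200 to 1000 kb and 1.04 with SHR sites (both inside the range of the shifts) and 0.802 for calls with no threshold, and turned to 1.08 with BN sites. The ratio at 3 to 10 kb of 1.01 moved above the range of the shifts, to 1.06 with shifts of 200 to 1000 kb and 1.09 for windows that overlap no other. The median of 26.6 kb moved to 27.5 kb with own calls, 46.0 kb with thresholds multiplied by 2, 43.8 kb with SHR sites, 42.9 kb with BN sites, 22.8 kb for calls with no threshold and 34.9 kb for windows that overlap no other, where fewer or more sites change the spacing by construction. It does not depend on the shifts, but lay below those of 200 to 1000 kb (27.4 to 29.9 kb). The ratio of strong to weak default sites stayed within its interval under every alternative, as did all results without chromosomes 12 and 20 or without 10 Mb at the chromosome ends. The alternatives with calls alone, BN sites and windows that overlap no other were chosen after the data were seen, as was counting within 3000 bp. Windows that overlap no other cannot give the ratios at 0.4 to 3 kb and within 3000 bp. Their shifted positions still fall there, which by itself raises their ratio of 1.09 at 3 to 10 kb.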
